A study of Homo sapiens with 6 samples.

Results

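The CDK inhibitors and the RB pocket proteins are 10 genes: CDKN1A, CDKN1B and CDKN1C of the CIP/KIP family, CDKN2A, CDKN2B, CDKN2C and CDKN2D of the INK4 family, and RB1, RBL1 and RBL2. They were chosen by name, with earlier results of these data known. Their values were taken from every HG-U133 Plus 2.0 probe set that the platform annotation assigns to exactly 1 of them. This gave 22 of 41751 probe sets and 9 of the 10 genes, among 18338 genes with values. CDKN2C was not analysed here. 2 stable lines of HEK293, an established human embryonic kidney line, were compared on 3 arrays each. Both are Tet-On lines kept under hygromycin B and G418, in which doxycycline switches on the inserted gene. One carries a control vector and the other a vector for myocilin, a secreted protein of the eye's drainage tissue. The labels describe doxycycline at 0.2 or 1 µg/ml for 48 h and do not say which dose an array had. A note of induction is attached to the myocilin samples only.

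Cyclin-dependent kinases drive the cell cycle when bound to cyclins. INK4 proteins bind the kinases CDK4 and CDK6 and keep them from their D-type cyclins, whereas CIP/KIP proteins bind whole cyclin-kinase complexes and block mainly those of CDK2. The targets of these kinases include the pocket proteins RB, p107 and p130, which hold E2F transcription factors and their target genes silent until they are phosphorylated. HEK293 cells were transformed with adenovirus genes, some of whose products bind the pocket proteins. The study's title concerns proliferation, survival and the ERK pathway. The comparison described here asks how the transcripts of these brakes differed between the lines.

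The authors deposited centred values, taken here as log2, whose median is 0 on every array. They show differences between arrays and no absolute level, so levels of different genes were not compared, no gene was called present or absent, and the identity of HEK293 could not be checked against its markers. All differences are myocilin minus control, tested with limma over the whole table p-values being adjusted by Benjamini-Hochberg, with 0.05 as the threshold. "Rose" and "fell" are used only of differences past that threshold. MYOC, the inserted gene, was higher on the myocilin arrays by 7.99 ± 0.35 (log2, SE; limma adjusted p = 4.70e-06). Each line is represented once, and the labels do not say whether a line is 1 clone or whether its arrays came from separate cultures. The p-values therefore measure the spread between these arrays, which may be technical, and myocilin cannot be told apart from other differences between the lines.

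Among the 9 measured genes, CDKN1C rose and CDKN1B and RB1 fell, and the other 6 did not pass the threshold. These 3 of 9 compare with 15.6% of all genes called (8.28% higher and 7.35% lower). The median difference of the 9 genes was 0.0013, against 0.02 over all genes, and the median absolute difference was 0.19 against 0.10. The changes were small, from -0.43 to 0.36 on the log2 scale. The groups did not overlap for 6 of the 9 genes, against 34.9% of all genes. All 3 CIP/KIP genes and all 3 pocket protein genes were among these 6, and all 3 INK4 genes overlapped. The shares set beside all genes describe the members and test no excess, since members were chosen with earlier results known.

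**Figure D1:**
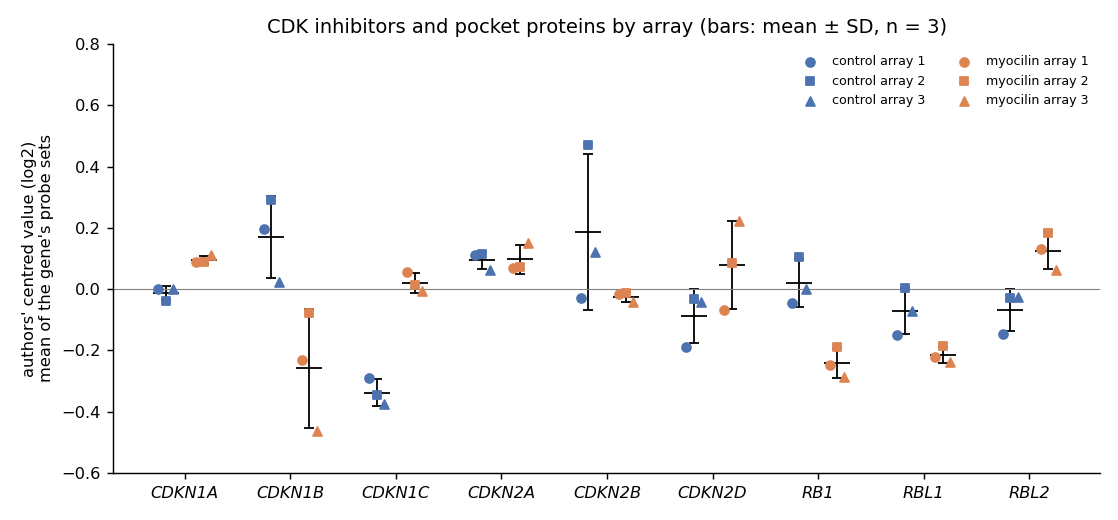
Centred log2 values of the 9 measured genes on each array, as the mean of a gene's probe sets, with control arrays in blue and myocilin arrays in orange; bars show mean ± SD over 3 arrays. CDKN1C sits between -0.38 and -0.29 on control arrays and between -0.0074 and 0.06 on myocilin arrays, and CDKN1B and RB1 are lower on every myocilin array.

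CDKN1C encodes p57, a CIP/KIP inhibitor of an imprinted region, expressed mainly from the maternal copy and used in embryonic tissues to stop division. It read -0.29, -0.35 and -0.38 in the control line against 0.06, 0.01 and -0.0074 in the myocilin line. All control arrays were lower than all myocilin arrays, and the gap was wide next to the spread within either line. The means were -0.34 ± 0.04 and 0.02 ± 0.03 (SD, n = 3 each). CDKN1C rose by 0.36 ± 0.06 (log2, SE; 95% interval 0.23 to 0.48; limma adjusted p = 0.00316), or 1.28-fold. The call held with each of the 6 arrays left out in turn (adjusted p 0.00749 to 0.0190) and under the 6 other settings tried.

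Of the 22 member probe sets, 13 had groups that did not overlap, against 30.4% of all probe sets. CDKN1C has 5 probe sets, of which 3 rose and 2 did not pass, against 11.0% of all probe sets called (5.46% higher, 5.56% lower). The probe set 213348_at read -0.46, -0.56 and -0.71 in the control line against 0.0084, 0.10 and -0.02 in the myocilin line, a rise of 0.60 ± 0.08 (adjusted p = 0.00219). Among the 7 member probe sets that passed, it was the only one whose call held whichever array was left out. The others that rose were 213182_x_at by 0.45 and 216894_x_at by 0.38. The first lost its call without any array but control 2 (adjusted p up to 0.0971), and the second without control 2, control 3, myocilin 1 or myocilin 2 (up to 0.0863). The ending _x_at marks a probe set with probes that can also match other transcripts. With _s_at and _x_at probe sets left out, CDKN1C still rose by 0.34 (adjusted p = 0.00610). The remaining probe sets were 219534_x_at at 0.29 (adjusted p = 0.0941), whose groups did not overlap, and 219533_at at 0.07 (adjusted p = 0.64), whose groups did.

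CDKN1B encodes p27, the CIP/KIP inhibitor that holds quiescent cells and is destroyed as cells enter S phase. Its only probe set, 209112_at, read 0.19, 0.29 and 0.02 in the control line against -0.23, -0.08 and -0.46 in the myocilin line. Every myocilin array was below every control array, although each line spread widely, with SDs of 0.13 and 0.19. CDKN1B fell by 0.43 ± 0.10 (log2, SE; 95% interval -0.66 to -0.20; limma adjusted p = 0.0231), so that the control line was 1.35-fold higher. This call depended on the arrays used. It was lost without control array 1 (-0.42, adjusted p = 0.0595), control array 2 (-0.37, adjusted p = 0.0810), myocilin array 1 (-0.44, adjusted p = 0.0617) or myocilin array 3 (-0.32, adjusted p = 0.0599).

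CDKN1A encodes p21, the inhibitor induced after DNA damage. Its probe set 202284_s_at read 0, -0.04 and 0.00034 in the control line against 0.09, 0.09 and 0.11 in the myocilin line. Both lines were tight and did not overlap, yet the difference of 0.11 ± 0.05 did not pass (log2, SE; 95% interval -0.0094 to 0.23; limma adjusted p = 0.202).

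The INK4 genes showed no call at the level of genes: 0 of the 3 measured passed limma's adjusted threshold, against 15.6% of all genes. Of these 3, 0 had an unadjusted p under 0.05, against 5503 of all 18338 genes. CDKN2A encodes p16 and, from another reading frame, ARF, an inhibitor of MDM2. It read 0.11, 0.11 and 0.06 in the control line against 0.07, 0.07 and 0.15 in the myocilin line, a difference of 0.0013 ± 0.06 (95% interval -0.12 to 0.13; limma adjusted p = 0.99). The lines overlapped in part, with myocilin array 3 above every control array and control array 3 below every myocilin array. Of its 3 probe sets, 207039_at was lower on every myocilin array, at 0.22, 0.18 and 0.17 against 0.11, 0.13 and 0.09, without passing (-0.09 ± 0.07, adjusted p = 0.471). The others differed by 0.02 and 0.07. The files do not say whether a probe set reads p16, ARF or both.

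CDKN2B, beside CDKN2A on chromosome 9, encodes p15, an inhibitor that TGF-beta signalling induces. As a gene it read -0.03, 0.47 and 0.12 in the control line against -0.02, -0.01 and -0.04 in the myocilin line. Control array 2 stood above the other arrays, and the SD of the control line was 0.25 against 0.02. The difference of -0.21 ± 0.11 did not pass (limma adjusted p = 0.232). Without control array 2 it was -0.07 (adjusted p = 0.556), and without control array 1 it was -0.32 (adjusted p = 0.0701). Of its probe sets, 236313_at fell by 0.43 ± 0.11 (adjusted p = 0.0299), from 0.24, 0.44 and 0.24 to 0, -0.02 and -0.35, while 207530_s_at read 0.0074 and spread from -0.30 to 0.50 within the control line. The call of 236313_at was lost with any array but myocilin 1 left out (adjusted p up to 0.0999). CDKN2D encodes p19, the INK4 inhibitor of cycling and differentiated cells. As a gene it differed by 0.17 ± 0.08 and did not pass (limma adjusted p = 0.211), reading -0.19, -0.03 and -0.04 against -0.07, 0.08 and 0.22. Its probe set 213586_at rose by 0.29 ± 0.07 (adjusted p = 0.0247), at -0.08, -0.11 and -0.08 against 0.23, 0.17 and 0.19, a call lost whichever array was left out (adjusted p 0.0555 to 0.0956). The other, 210240_s_at, read 0.05. Without myocilin array 3 the gene's difference was 0.10 (adjusted p = 0.501), and from its first probe set by ID, 210240_s_at, it was 0.05 (adjusted p = 0.877). With _s_at and _x_at probe sets left out, CDKN2B fell (-0.43, adjusted p = 0.0223) and CDKN2D rose (0.29, adjusted p = 0.0140), since 1 probe set of each remained.

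**Figure D2:**
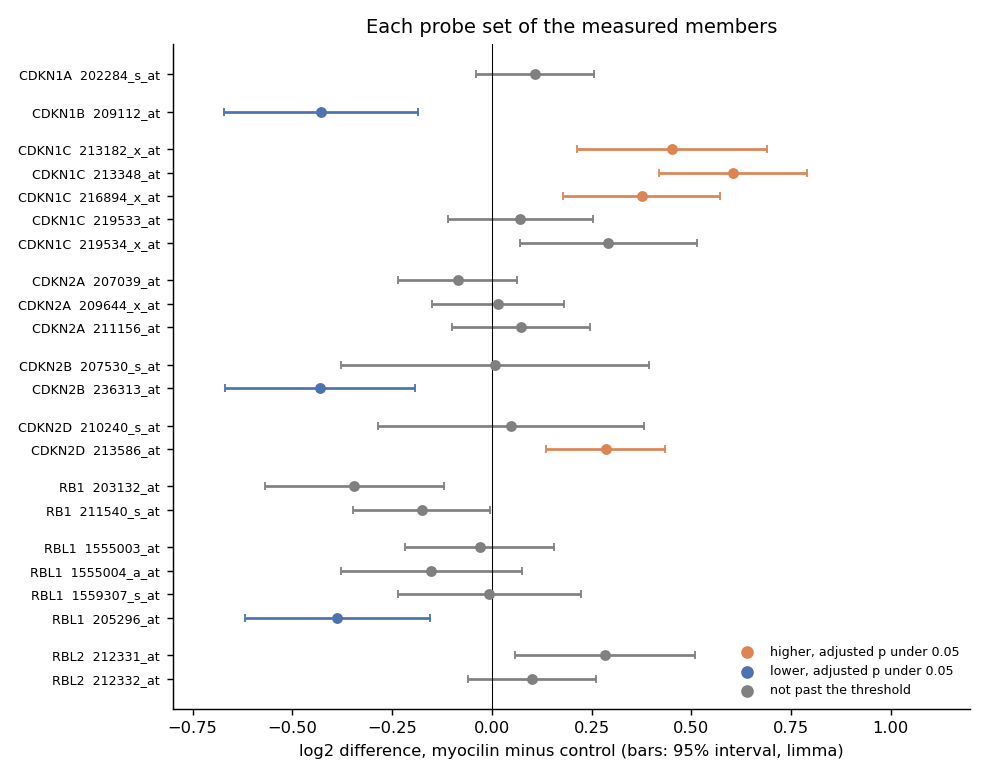
Log2 difference, myocilin minus control, of each of the 22 probe sets of the 9 measured genes, with limma's 95% interval; colour marks the adjusted call. The 4 that rose belong to CDKN1C and CDKN2D, and the 3 that fell to CDKN1B, CDKN2B and RBL1.

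RB1 encodes the retinoblastoma protein, the pocket protein that restrains the activator E2Fs. It read -0.05, 0.10 and 0 in the control line against -0.25, -0.19 and -0.29 in the myocilin line. All myocilin arrays lay below all control arrays. RB1 fell by 0.26 ± 0.06 (log2, SE; 95% interval -0.40 to -0.12; limma adjusted p = 0.0223). Neither of its probe sets passed alone, 203132_at at -0.34 (adjusted p = 0.0564) and 211540_s_at at -0.18 (adjusted p = 0.186), and both had groups that did not overlap. The gene's call was lost without control array 2 (-0.22, adjusted p = 0.0680), control array 3 (-0.27, adjusted p = 0.0517), myocilin array 1 (-0.26, adjusted p = 0.0746) or myocilin array 3 (-0.24, adjusted p = 0.0668), and from the first probe set of every gene, here 203132_at, at -0.34 (adjusted p = 0.0513). In the gene fit with _s_at and _x_at probe sets left out, where only 203132_at stood for RB1, the gene kept its call (adjusted p = 0.0431).

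RBL1 encodes p107, a pocket protein that rises with E2F activity and binds the repressor E2Fs of cycling cells. As a gene it read -0.15, 0.0036 and -0.07 in the control line against -0.22, -0.19 and -0.24 in the myocilin line. The groups did not overlap, but the difference of -0.14 ± 0.06 did not pass (log2, SE; 95% interval -0.28 to -0.0092; limma adjusted p = 0.141). Of its 4 probe sets, 205296_at fell by 0.39 ± 0.10 (adjusted p = 0.0405), from -0.14, 0.06 and 0 to -0.28, -0.33 and -0.63. The other 3 differed by -0.15 to -0.0059 and overlapped between lines, and from the first by ID, 1555003_at, the gene's difference was -0.03 (adjusted p = 0.859). The fall of 205296_at was lost with eBayes trend and robust fitting, and without any array but control 1, with adjusted p up to 0.125.

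RBL2 encodes p130, the pocket protein most abundant in quiescent cells. It read -0.15, -0.03 and -0.03 in the control line against 0.13, 0.18 and 0.06 in the myocilin line. The myocilin arrays were all higher, and the difference of 0.19 ± 0.06 fell short of the threshold (log2, SE; 95% interval 0.05 to 0.33; limma adjusted p = 0.0676). It passed with array weights (0.20, adjusted p = 0.0468). Its probe sets differed by 0.28 (212331_at, adjusted p = 0.108) and 0.10 (212332_at, adjusted p = 0.427). The pocket protein genes thus had differences of both signs, with only that of RB1 past the threshold.

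The difference between probe sets of one gene was tested over all 36511 such pairs in the table, a test added after the data were seen, in which 2.40% of pairs were called by limma. Of the 23 pairs of member probe sets, 0 were called. An unadjusted p under 0.05 was found for 7, and the share of all pairs with such a p was not counted. The smallest adjusted p was 0.0676, for 213348_at against 219533_at of CDKN1C, whose differences lay 0.53 apart. For CDKN2B the pair lay 0.44 apart (adjusted p = 0.287), and for RBL1 the probe sets 1559307_s_at and 205296_at lay 0.38 apart (adjusted p = 0.135). A call for 1 probe set of a gene and not for another was therefore not shown to be a difference between them.

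Exact zeros, a feature of these centred values, occurred on at least 1 array in 11 of the 22 probe sets, against 57.3% of all probe sets. Among the control arrays, array 2 held the highest value in 12 of the 22 probe sets, and among the myocilin arrays, array 3 held the highest in 10 and the lowest in 10. The part of these arrays in the calls is shown by the values without them above.

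Sequences before the start sites are shown for the 4 members that had a probe set past the threshold and a RefSeq window at the gene's 5′ end. They come from RefSeq on GRCh38.p14 and were matched by symbol for 9 of the 10 members, all but CDKN1C, with 13 windows in all. The only RB1 window lies inside the gene and is not printed. In the 250 bases before each start, 3 motifs were searched on both strands: the E2F words TTTCCCGC, TTTCGCGC, TTTGCCGC and TTTGGCGC, the GC box GGGCGG, to which Sp1-type factors bind, and TTTGAA, the element bound by MuvB. Capitals mark each match, and no matches overlap in the windows shown.
RBL1 (chr20:37095998-37096247, minus strand): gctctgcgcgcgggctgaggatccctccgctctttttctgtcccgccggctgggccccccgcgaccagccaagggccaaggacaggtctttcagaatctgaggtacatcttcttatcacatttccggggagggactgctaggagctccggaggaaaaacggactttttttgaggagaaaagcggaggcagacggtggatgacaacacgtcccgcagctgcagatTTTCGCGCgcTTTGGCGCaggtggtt
CDKN1B (chr12:12717118-12717367, plus strand): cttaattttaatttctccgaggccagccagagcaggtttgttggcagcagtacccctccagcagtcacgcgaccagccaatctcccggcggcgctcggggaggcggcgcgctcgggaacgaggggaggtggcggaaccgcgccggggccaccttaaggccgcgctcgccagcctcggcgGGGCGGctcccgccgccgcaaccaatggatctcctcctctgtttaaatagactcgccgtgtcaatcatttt
CDKN2B (chr9:22009306-22009555, minus strand): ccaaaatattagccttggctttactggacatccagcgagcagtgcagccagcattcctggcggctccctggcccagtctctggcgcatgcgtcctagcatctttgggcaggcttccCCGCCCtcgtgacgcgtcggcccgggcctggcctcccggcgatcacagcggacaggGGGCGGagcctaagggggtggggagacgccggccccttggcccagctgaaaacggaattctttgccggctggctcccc
CDKN2D (chr19:10568980-10569229, minus strand): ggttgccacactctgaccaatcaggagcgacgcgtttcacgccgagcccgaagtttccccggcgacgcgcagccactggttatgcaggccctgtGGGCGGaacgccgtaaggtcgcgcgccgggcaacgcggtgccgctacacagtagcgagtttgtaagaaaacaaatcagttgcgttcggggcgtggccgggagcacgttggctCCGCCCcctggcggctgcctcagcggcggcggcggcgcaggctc
RBL1 held 2 E2F words, TTTCGCGC from 26 to 19 bases and TTTGGCGC from 16 to 9 bases before the start. It was the only one of the 13 member windows with an E2F word, which 2.79% of all 35116 windows held. GC boxes were found in 7 of the 13 member windows, among them those of CDKN1B, CDKN2B and CDKN2D, against 42.6% of all windows, and TTTGAA in 0 of 13 against 13.3%. These matches describe the letters only.

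Each member was set against the 50 measured genes nearest to it. Of those near CDKN1A, 11 rose and 0 fell, and of those near RBL2, 10 rose and 1 fell. Near RB1, 1 rose and 6 fell, near CDKN1B 3 and 3, and near CDKN1C 3 and 1. Near CDKN2D, 0 rose and 6 fell, near CDKN2A and near CDKN2B 6 and 0, and near RBL1 1 and 2. Over all genes, 8.28% rose and 7.35% fell. RBL2 lies on chromosome 16 (53434471-53491648, GRCh38.p14), whose 777 measured genes had a median difference of 0.14, with 214 higher and 7 lower. The 50 measured genes nearest to RBL2 had a median of 0.12, and with them subtracted array by array RBL2 read 0.08 ± 0.07 (log2, SE; limma adjusted p = 0.503). CDKN1A lies on chromosome 6 (36676463-36687332), with a median of 0.09 over 1006 genes, and read 0.04 ± 0.05 with its neighbours subtracted, from 0.11. For both genes the difference was smaller with the neighbours subtracted.

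The 3 called genes moved little under this subtraction. CDKN1C, on chromosome 11 (2883218-2885775), had a neighbour median of 0.09 and read 0.33 ± 0.06 (log2, SE; limma adjusted p = 0.00616). CDKN1B, on chromosome 12 (12717368-12722369), had a neighbour median of -0.0065 and read -0.42 ± 0.10 (adjusted p = 0.0298). RB1, on chromosome 13 (48303751-48481890), had a neighbour median of -0.03 and read -0.24 ± 0.06 (adjusted p = 0.0367). Of the measured genes of chromosome 11, 56 rose and 55 fell, of chromosome 12, 31 and 104, and of chromosome 13, 9 and 31. RBL1 on chromosome 20, CDKN2D on chromosome 19 and the CDKN2A and CDKN2B pair on chromosome 9 had neighbour medians of -0.0027 to 0.03, and none of these 4 genes was called with the neighbours subtracted.

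**Figure D3:**
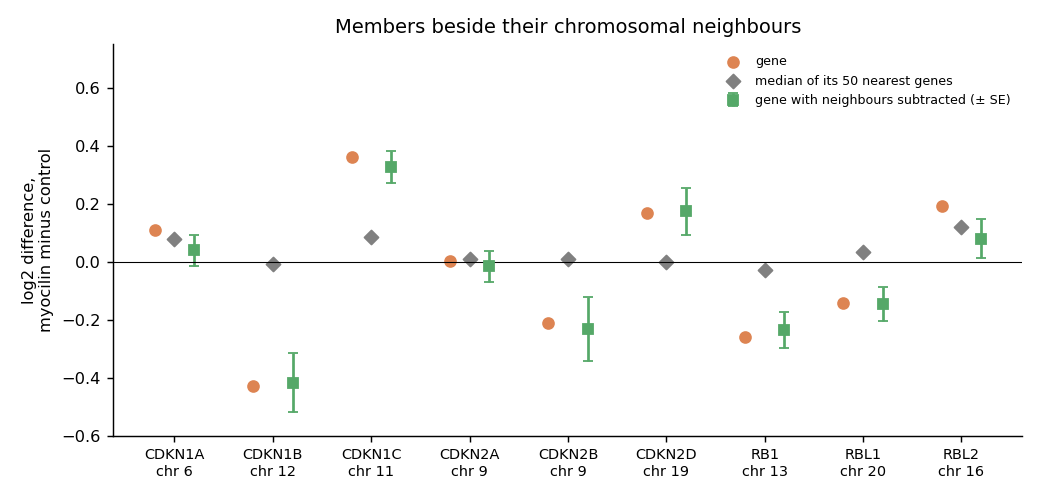
For each of the 9 measured genes, the log2 difference (myocilin minus control), the median difference of its 50 nearest measured genes, and the gene's difference with those neighbours subtracted array by array (± SE). RBL2 goes from 0.19 to 0.08 and CDKN1A from 0.11 to 0.04, while CDKN1C, CDKN1B and RB1 stay at 0.33, -0.42 and -0.24.

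Of 99 other measured genes of the pathway, 11 rose and 10 fell, or 21.2% against the 15.6% of all genes, with a median difference of -0.0041. The lists were chosen with earlier results of these data known and are described by counts. Among the 16 measured genes of the list of cyclins and CDKs, 2 rose, 2 fell and 12 did not pass. Of the 4 called, 3 were D-type cyclin genes. CCND1 rose by 0.25 ± 0.07 and CCND3 by 0.24 ± 0.06, whereas CCND2 fell by 0.30 ± 0.06 (log2, SE; limma adjusted p = 0.0319, 0.0315 and 0.00961). CDK4, a partner of D-type cyclins and the target of INK4 proteins, fell by 0.21 ± 0.05 (adjusted p = 0.0236). The median of this list was -0.04. The CCND2 call held whichever array was left out, that of CDK4 was lost in every such case (adjusted p 0.0519 to 0.0814), that of CCND3 in all but the one without control 1 (up to 0.0994), and that of CCND1 in all but the one without control 3 (up to 0.119). The probe sets of CCND2 ranged from -0.59 to -0.07, and by its first probe set alone it was not called (-0.07, adjusted p = 0.625). CCND3 was not called by its first probe set either (0.12, adjusted p = 0.419). CDK4 has only 1 probe set. It kept its value of -0.21 but not its call when 1 probe set stood for each gene (adjusted p = 0.0623). With _s_at and _x_at probe sets left out CCND1 read 0.16 (adjusted p = 0.207). With neighbours subtracted, CCND1 read 0.24, close to its value without subtraction, and missed the threshold (adjusted p = 0.0509), while CCND3 read 0.15 (adjusted p = 0.169).

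Of the 11 E2F and DP genes, some of whose products the pocket proteins bind, 3 rose and 0 fell. Their median was 0.20 against 0.02 over all genes. E2F3, an activator held by RB, rose by 0.36 ± 0.07 (log2, SE; limma adjusted p = 0.00839), the repressor gene E2F6 by 0.22 ± 0.06 (adjusted p = 0.0323) and E2F5, a partner of p130, by 0.20 ± 0.06 (adjusted p = 0.0424). Averaged over the list, the control line read -0.10, -0.09 and -0.07 against 0.04, 0.03 and 0.03 in the myocilin line. E2F3 kept its call with each array left out, E2F6 lost it in all cases but the one without control 3 (up to 0.0987) and E2F5 in all 6 (0.0626 to 0.126). E2F3 lies on chromosome 6, and with neighbours subtracted it read 0.28 (adjusted p = 0.0356), while E2F5 read 0.16 and was not called (adjusted p = 0.107). By its first probe set E2F5 read 0.08 (adjusted p = 0.574). E2F6 kept its value of 0.22 but not its call when 1 probe set stood for each gene (adjusted p = 0.0713) and with _s_at and _x_at probe sets left out (adjusted p = 0.0521).

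Of 22 E2F target genes of G1/S, 3 rose, 5 fell and 14 did not pass, with a median of 0.02. The replication licensing genes MCM2 and MCM6 fell by 0.38 ± 0.06 and 0.48 ± 0.08, and TYMS, for thymidylate synthase, by 0.39 ± 0.06, while MCM10, which helps the replicative helicase to start, rose by 0.32 ± 0.05 (log2, SE; limma adjusted p = 0.00514, 0.00550, 0.00252 and 0.00425). These 4 calls held whichever array was left out. Of the list's other licensing genes, named after their values were seen, CDT1 rose by 0.34 ± 0.07 (limma adjusted p = 0.00865). CDC6, ORC1, MCM3, MCM4, MCM5 and MCM7 did not pass. TYMS lies on chromosome 18, whose 274 genes had a median of -0.21 with 132 lower and 4 higher. With neighbours subtracted it read -0.13 and was no longer called (adjusted p = 0.157), and by its first probe set it read -0.62 (adjusted p = 0.000595). MCM6 read -0.20 from the first of its 2 probe sets and was not called there (adjusted p = 0.100). MCM10 lies on chromosome 10, whose 715 genes had a median of 0.11 with 152 higher and 20 lower. With neighbours subtracted MCM10 read 0.21 and kept its call (adjusted p = 0.0382), as did MCM2 at -0.38 and MCM6 at -0.44.

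In the MuvB core, with which p107 and p130 silence cell cycle genes, and its later partners, 0 of 7 genes passed limma's adjusted threshold, with a median of -0.06. Of these 7, 2 had an unadjusted p under 0.05, against 5503 of all 18338 genes. Among 12 corepressors that pocket proteins recruit, 0 rose and 1 fell, with a median of -0.09. This was KDM5A, a histone demethylase first found as an RB-binding protein, at -0.22 ± 0.06 (log2, SE; limma adjusted p = 0.0455). Its 5 probe sets ranged from -0.46 to 0.11, and its call was lost with any 1 array left out (adjusted p 0.0655 to 0.136). By its first probe set it read 0.11 (adjusted p = 0.369), with _s_at and _x_at probe sets left out -0.25 (adjusted p = 0.0746) and with neighbours subtracted -0.20 (adjusted p = 0.0681), without a call. Of 12 parts of cell cycle ubiquitin ligases, among them those that mark p21, p27 and p57 for breakdown, 1 rose and 0 fell. Their median was -0.04. UBAC1, a subunit of a ligase for p27 in G1, rose by 0.23 ± 0.05 (adjusted p = 0.0190). It read 0.05 with neighbours subtracted (adjusted p = 0.621), and its call was lost with any array but control 2 left out (up to 0.0569) and with 1 probe set for each gene (adjusted p = 0.0505). SKP2, the F-box protein that recognises p27 in S phase, chosen after its value was seen, read 0.05 ± 0.06 and did not pass (adjusted p = 0.621).

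Among 23 measured regulators of inhibitor transcription, 2 rose, 2 fell and 19 did not pass, with a median of 0.03. MYC, which represses CDKN1A and CDKN2B together with MIZ1, rose by 0.67 ± 0.08, and KLF4, an activator of CDKN1A, by 0.28 ± 0.05 (log2, SE; limma adjusted p = 0.000836 and 0.00825). SMAD2 and SMAD4, through which TGF-beta induces CDKN2B, fell by 0.52 ± 0.07 and 0.23 ± 0.06 (adjusted p = 0.00117 and 0.0269). Both SMAD genes lie on chromosome 18. With neighbours subtracted SMAD2 read -0.34 (adjusted p = 0.0146) and SMAD4 was not called at -0.02 (adjusted p = 0.828). The calls of MYC, KLF4 and SMAD2 held whichever array was left out, and that of SMAD4 was lost in all cases but the one without control 1 (up to 0.104). SMAD4 read -0.16 with _s_at and _x_at probe sets left out (adjusted p = 0.167) and 0.03 by its first probe set (adjusted p = 0.848). By its first probe set alone KLF4 was not called (0.18, adjusted p = 0.130). BMI1, CBX8 and RNF2, also in the list, were not analysed here.

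**Figure D4:**
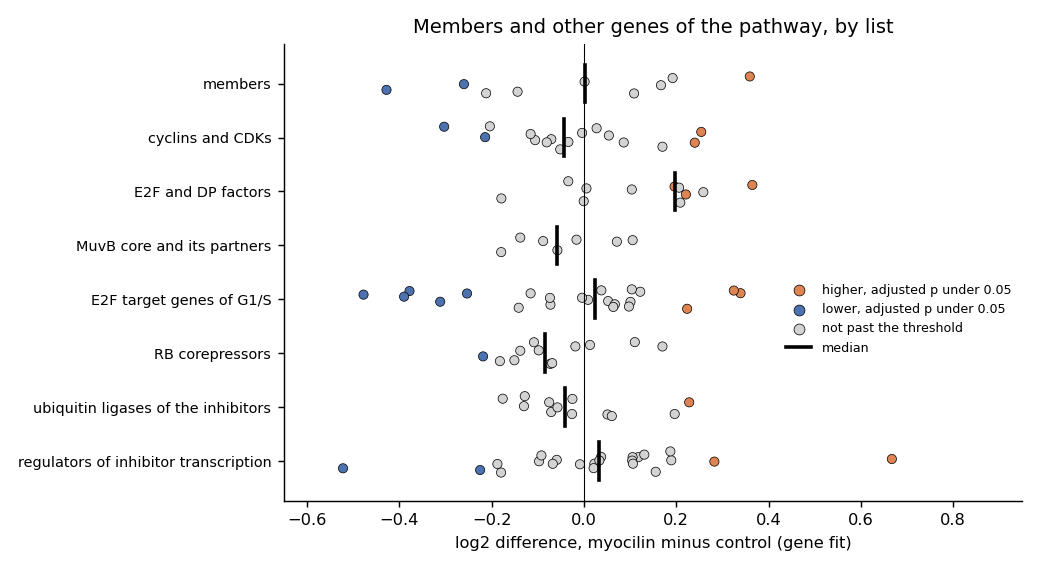
Log2 differences (myocilin minus control) of the 9 members and of the measured genes of each pathway list; each point is a gene, coloured by its adjusted call, and the bar is the list's median. The E2F and DP genes have the highest median, 0.20, and the lists of cyclins, E2F targets and transcription regulators hold genes that rose and genes that fell.

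**Figure D5:**
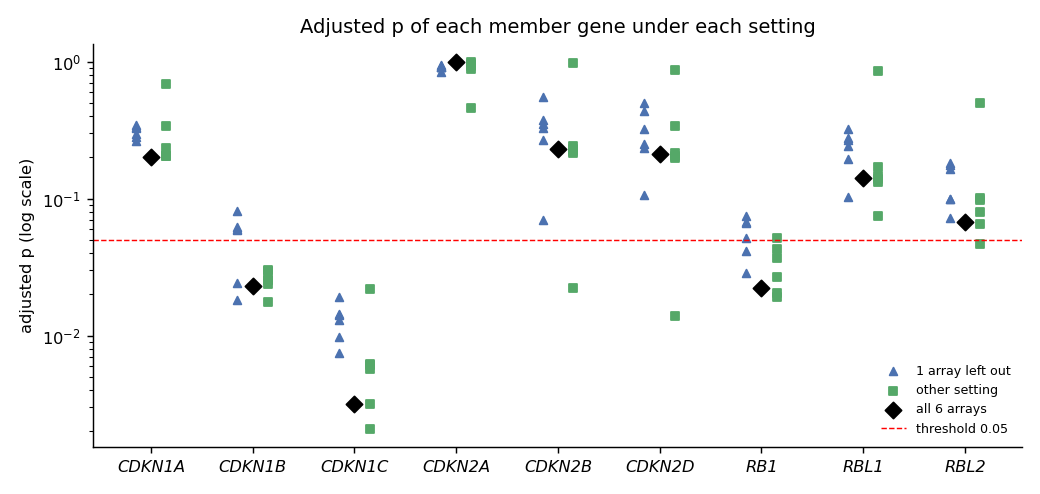
Limma adjusted p of each member gene on a log axis, with all 6 arrays (black), with 1 array left out (blue) and under the other settings (green); the dashed line is the threshold of 0.05. CDKN1C stays below the line under each setting run, and CDKN1B and RB1 cross it in 4 of the 6 cases with an array left out.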

How the data were processed

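The deposited values of 6 Affymetrix HG-U133 Plus 2.0 arrays are positive and negative log2 values with a median of 0 per array; base 2 was inferred from the values. How background, summarisation and scaling were handled is not given in the sources used here. No filter on dim probe sets was possible. Arrays were grouped by source name. Probe sets with 1 annotated gene (37460) took current symbols from RefSeq (GRCh38.p14; 37416 matched by Entrez ID), and probe sets were averaged per gene. The test between probe sets of a gene and the choice of printed windows were added after the data were seen. Lines were compared with limma 3.58.1 (lmFit, eBayes, two-sided) in R 4.3.3 over all genes and over all probe sets, with Benjamini-Hochberg adjustment. The fits were tested on simulated data. Members and lists were chosen with earlier results of these data known. Named were MYOC, every member and up to 4 genes past the threshold in each list by p. Alternatives were array weights, quantile normalisation, a trended robust eBayes, no _s_at or _x_at probe sets, the first probe set by ID, neighbours subtracted and each array left out. Precision is limited by 3 arrays per line.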

Additional observations from a re-analysis of the deposited data

How the results depend on the processing

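Of the member genes, CDKN1C kept its call under all 12 alternatives run, CDKN1B under 8 and RB1 under 7. The number of member genes called was 3, and 5 with _s_at and _x_at probe sets left out, where CDKN1A had none. With 1 array left out it was 1 to 3. The number of member probe sets called was 7, and 2 to 3 with 1 array left out. Other pathway genes called numbered 21, but 8 with those probe sets left out, which tests 72 genes, 13 with neighbours subtracted and 11 to 13 with 1 array left out. Of 196 recomputed values of the 17 named pathway genes, 62 lost the call with the same sign and 2 with the sign turned, and 9 of the genes kept it whichever array was left out. Over all genes the count went from 2866 to 1613 without myocilin array 1. Signs turned only for values not called under the alternative. CDKN2A, near 0, read -0.0097 with quantile normalisation, -0.0066 with array weights, -0.0057 without _s_at and _x_at, -0.0858 by the first probe set, -0.0158 with neighbours subtracted, and -0.0254 to 0.0155 with 1 array left out. By the first probe set, CDKN2B read 0.0074, KDM5A 0.112 and SMAD4 0.0287; the cause was not tested. No paired analysis was possible because the labels share no replicate number between the lines.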

Other observations

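Markers of other cell types were read beside the members as a check on the samples. Of 5 fibroblast markers, COL1A1 rose by 0.25 ± 0.06 (log2, SE; limma adjusted p = 0.0240) and 4 did not pass. Of 4 measured blood markers and 5 endothelial markers, 0 passed, against 15.6% of all genes. An unadjusted p under 0.05 was found for 1 and 0 of them, against 5503 of all 18338 genes. The fibroblast list mean was -0.09 to -0.02 on the control arrays and -0.01 to 0.03 on the myocilin arrays. On centred values no marker can be placed at or near background, and its part in the members' differences was not tested.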
